A study of Mus musculus with 5 samples.

Results

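This account describes 38 genes of DNA replication and mitosis in mouse kidney, picked by symbol from a count table of 54532 Ensembl gene IDs. All 38 symbols were found, each with 1 gene ID, and all 38 had counts in all 5 libraries and passed the expression filter. By role they fall into 14 DNA replication genes, 3 cyclins of the G1/S transition and 21 mitosis genes, a set that includes the S and G2 cyclin gene Ccna2 and the proliferation marker gene Mki67. Kidney RNA was sequenced from wild-type C57BL/6J males aged 8 weeks. The vehicle group had 3 samples and the DMXAA group 2, each treated by intraperitoneal injection once a day for 3 days, with DMXAA at 10 mg/kg, and sampled on day 3. DMXAA (vadimezan) binds and switches on mouse STING, which relays the detection of DNA in the cytosol to interferon genes. Nothing in the labels ties each replicate to its own mouse, and the p-values therefore measure only the spread between these samples, which may be technical.

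A dividing cell copies its genome in S phase and separates the copies in mitosis. The MCM helicase is loaded on DNA in G1, is activated by Cdc45 and the GINS complex, and is followed by polymerases held on DNA by the PCNA clamp, while ribonucleotide reductase and thymidylate synthase supply nucleotides. Transcripts of these replication genes accumulate at G1/S under E2F factors, and those of mitosis genes accumulate later, in G2 and M, under the DREAM and MuvB complexes and FoxM1. In the adult kidney most tubule cells are quiescent, with few in cycle at a time. Many replication proteins also serve DNA repair.

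The libraries held 17667490 to 20264228 counts, of which 7038 to 12222 fell on the 38 genes. The share of counts on the mitochondrial genome was 8.98 to 9.96% with vehicle against 8.7 and 7.8% with DMXAA. The labelled tissue was checked against defining genes: 8 proximal tubule markers summed to 7640 to 11400 CPM (read counts scaled to library size) and 8 distal nephron markers to 5910 to 8670 CPM, with none at 0 in any library. Vehicle library 1 stood apart in adipose genes (8 genes, 898 CPM, elsewhere 45.1 to 73.8 CPM) and urothelial genes (8 genes, 265 CPM, elsewhere 103 to 140 CPM). Some of these were at 0 in other libraries (Adipoq and Lep in both DMXAA libraries, Upk2 and Krt5 in vehicle library 2). The group medians, the counts of members and some single estimates are therefore also given without vehicle library 1. All levels below are CPM scaled by the trimmed mean of M-values (TMM). A positive log2 fold change means a higher level with DMXAA, and its standard error (SE) comes from edgeR's quasi-likelihood test.

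Estimates for the mitosis genes were higher in the DMXAA kidneys, with a median log2 fold change of 0.87, whereas the median for the replication genes was 0.20. All 21 mitosis genes had estimates above 0, from 0.06 for the checkpoint kinase gene Bub1b to 1.34 for the mitotic cyclin gene Ccnb2, and 7 of them were at 1 or more. Of the 14 replication genes, 11 had estimates above 0, from -0.25 for Cdt1 to 0.59 for the helicase gene Mcm6. Over all 16226 genes tested, 46.9% had estimates above 0 and the median was -0.01. No single gene was called: edgeR gave adjusted p-values of 0.724 to 0.997 for the 38 genes, and 0% of all tested genes passed an adjusted p of 0.05. DESeq2 called none of the 38 either (smallest adjusted p 0.302), and 0.296% of the genes to which it gave an adjusted p. In bulk RNA, fewer cells of a type and less RNA per cell cannot be told apart.

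Both DMXAA libraries lay above all 3 vehicle libraries for 11 of 21 mitosis genes and 2 of 14 replication genes, against 13.7% of all tested genes. In no member did both lie below all vehicle libraries, against 12.3% of all tested genes, so 34.2% of the members had groups that did not overlap, beside 26.0% of all tested genes. At an unadjusted p below 0.05 in edgeR there were 7 members, all higher in DMXAA: Mcm6, Ccna2, Ccnb2, Cdc20, Kif11, Nusap1 and Top2a. That share is 18.4% of the 38 members, beside 6.55% of all tested genes, of which 3.89% were higher and 2.65% lower. The number depended on which libraries were kept. It was 20 without vehicle library 3, 4 without vehicle library 2 and 1 without DMXAA library 2, and 7 and 6 without vehicle library 1 and DMXAA library 1. Many of these genes are expressed together in dividing cells, so they are not independent observations.

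**Figure D1:**
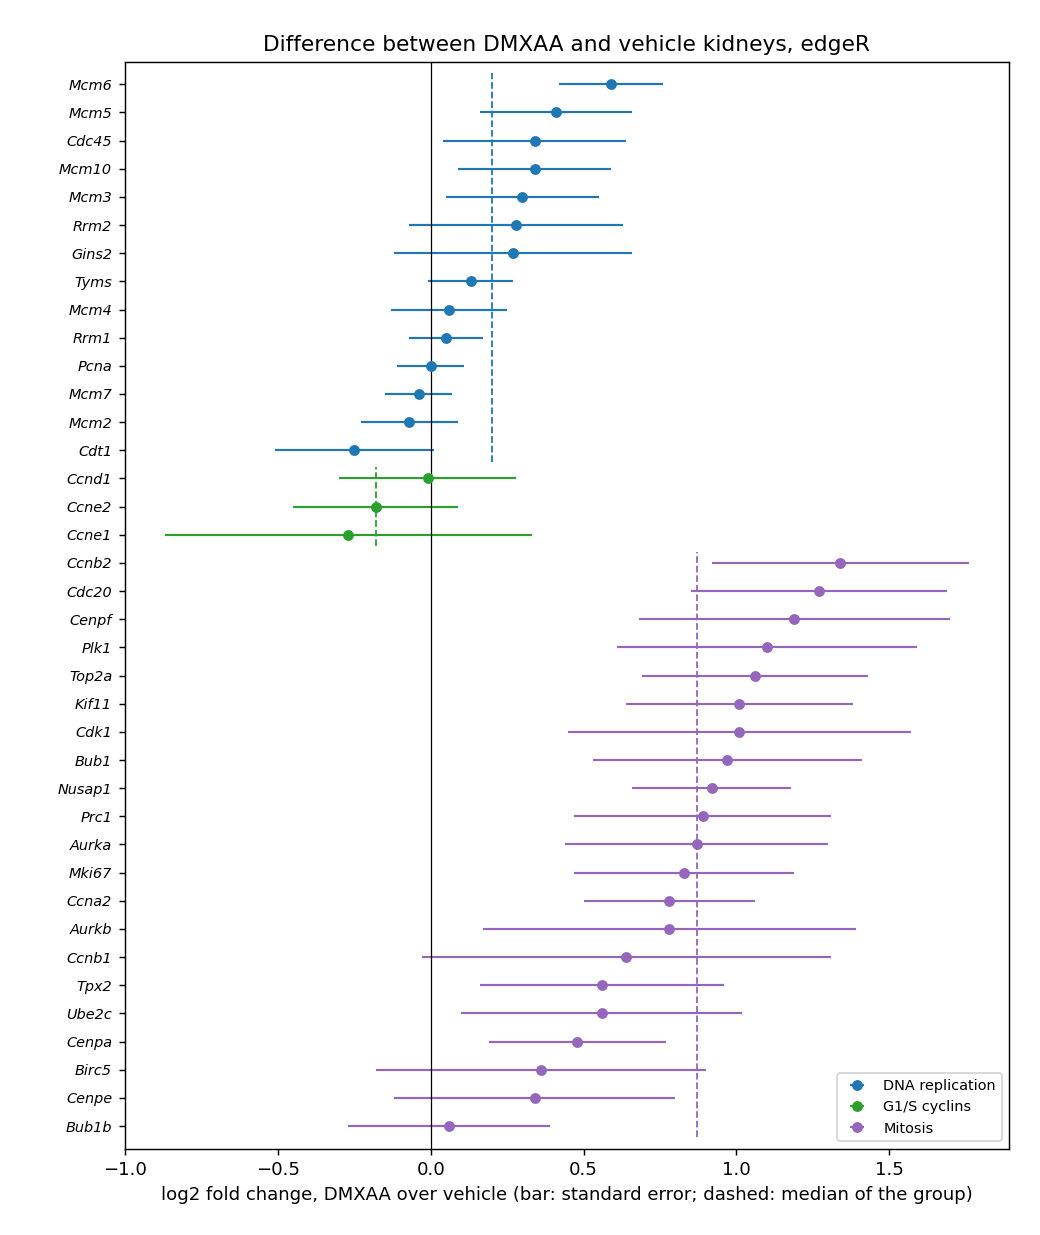
Log2 fold change (x axis, DMXAA over vehicle) of each of the 38 genes, with bars of 1 standard error from edgeR (3 vehicle and 2 DMXAA libraries) and dashed lines at the group medians. The 21 mitosis genes lie right of 0 around a median of 0.87, and the 14 replication genes lie around 0.20.

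The MCM helicase is a ring of 6 different subunits, Mcm2 to Mcm7, and Mcm6 had the largest estimate among these genes. Mcm6 was at 25.6, 34.6 and 37.3 CPM with vehicle, against 45.9 and 52.1 CPM with DMXAA. The groups did not overlap, and the lowest value was in vehicle library 1. The log2 fold change was 0.59 (SE 0.17), or 1.51-fold, with an unadjusted p of 0.00979 and an adjusted p of 0.724 in edgeR. It was 0.44 without vehicle library 1 and 0.50 without DMXAA library 2. Mcm6 (ENSMUSG00000026355) spans chromosome 1 from 128331590 to 128359664 on mm10. The other subunits had log2 fold changes between -0.07 and 0.41 (0.41 for Mcm5, SE 0.25), all with overlapping groups. Whether Mcm6 differed from them was not tested. Mcm7 was nearly level, at 19, 20.6 and 20.3 CPM with vehicle, against 19.7 and 19.2 CPM with DMXAA. Mcm5, which forms the gate of the ring with Mcm2, was at 5.84, 6.37 and 9.43 CPM with vehicle, against 8.55 and 10.6 CPM with DMXAA. Mcm2 was at 16.1 ± 2.3 CPM (SD, n = 3) and 15.3 ± 1.34 CPM (SD, n = 2), Mcm3 at 5.9 ± 1.56 and 7.27 ± 0.153 CPM, and Mcm4 at 10.7 ± 1.59 and 11.1 ± 1.6 CPM.

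Divided by the length of its merged exons, Mcm6 had the highest level of the 6 subunit genes in every library. It was at 5.49, 7.42 and 7.99 CPM per kilobase with vehicle, against 9.84 and 11.2 with DMXAA, while the other 5 ran from 1.21 to 4.65 CPM per kilobase. Mcm6 made up 30.8, 37.2 and 35.2% of the summed level of the 6 genes with vehicle, against 41.2 and 44.3% with DMXAA, so the groups did not overlap in this share. The share is drawn from the same Mcm6 reads as the fold change and adds no separate observation. Reads of Mcm7 are the least certain of the 6, because 557 of its exonic bases are also exons of other genes.

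**Figure D2:**
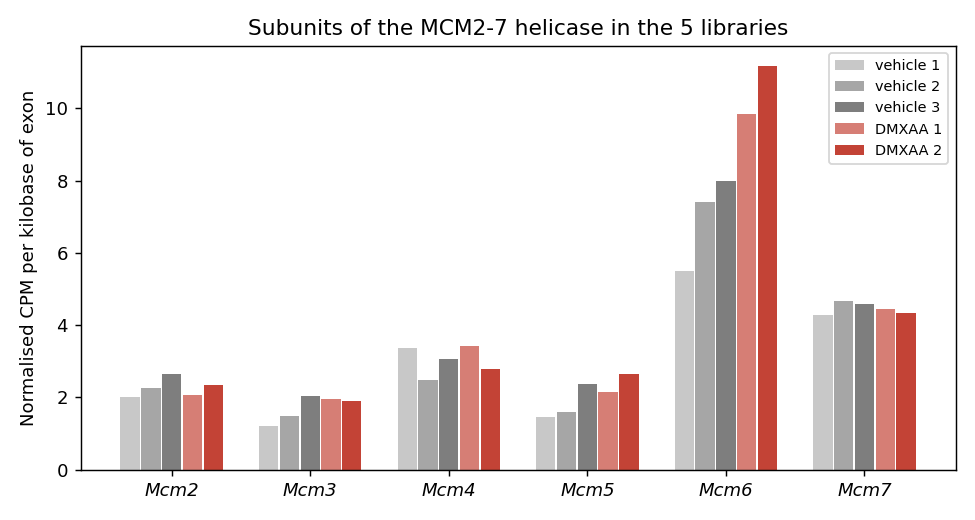
Level of the 6 MCM helicase subunit genes (y axis, normalised CPM per kilobase of merged exons) in each library, with 1 bar per library and no error bars. Mcm6 lies at 5.49 to 7.99 with vehicle against 9.84 and 11.2 with DMXAA, while the bars of Mcm7 stay between 4.29 and 4.65.

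Among genes that load and activate the helicase, the estimates were 0.34 for Mcm10, 0.34 for Cdc45 and 0.27 for Gins2, while that of Cdt1 was below 0. Their SEs of 0.25 to 0.39 are too wide to tell whether they shifted together. Mcm10, which is needed to start unwinding, was at 5.03, 3.98 and 3.22 CPM with vehicle, against 5.22 and 5.12 CPM with DMXAA. The groups did not overlap, but vehicle library 1 lay close below the DMXAA pair, and the log2 fold change of 0.34 (SE 0.25) had an unadjusted p of 0.215. It was 0.52 without vehicle library 1 and 0.20 without vehicle library 3. Cdc45 was at 2.22 ± 0.433 and 2.81 ± 0.525 CPM. Gins2, a subunit of the GINS complex, was at 1.68 CPM in vehicle library 1 and between 3.77 and 3.92 CPM in the other 4 libraries, and shares 2758 exonic bases with an opposite-strand gene. Cdt1, the loading factor that is destroyed once S phase begins, had the lowest estimate of the 14 genes (-0.25, SE 0.26).

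Of the clamp and nucleotide supply members, Pcna, Rrm1 and Tyms had estimates from 0.00 to 0.13, and that of Rrm2 was uncertain. Pcna, the sliding clamp, was at 40.8, 48.7 and 50.2 CPM with vehicle, against 46.4 and 46.9 CPM with DMXAA, a log2 fold change of 0.00 (SE 0.11) whose sign turned with the libraries kept. Rrm1, the large subunit of ribonucleotide reductase, was at 16.7 ± 0.716 and 17.3 ± 1.52 CPM. Rrm2, the small subunit made in S phase, varied more within vehicle, at 4.76, 6.48 and 10.9 CPM against 7.71 and 10.1 CPM in DMXAA (log2 fold change 0.28, SE 0.35). Thymidylate synthase (Tyms) was at 13 ± 1.38 and 14.3 ± 0.752 CPM. The SE ran from 0.11 to 0.39 over the 14 replication genes. Their median of 0.20 was 0.06 without vehicle library 1 and 0.11 without DMXAA library 2.

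None of the 3 G1/S cyclin genes had an estimate above 0. Ccnd1, the cyclin that couples growth signals to entry into the cycle, had the highest level of all members and was at 169, 304 and 357 CPM with vehicle, against 286 and 262 CPM with DMXAA. Its log2 fold change was -0.01 (SE 0.29), and both DMXAA values fell inside the vehicle range. Ccne2, a partner of CDK2 at the start of S phase, was at 2.64 ± 0.292 and 2.32 ± 0.377 CPM. Its relative Ccne1 was the rarest member, with 6 to 18 reads a library, and was at 0.735 ± 0.347 and 0.615 ± 0.307 CPM.

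**Figure D3:**
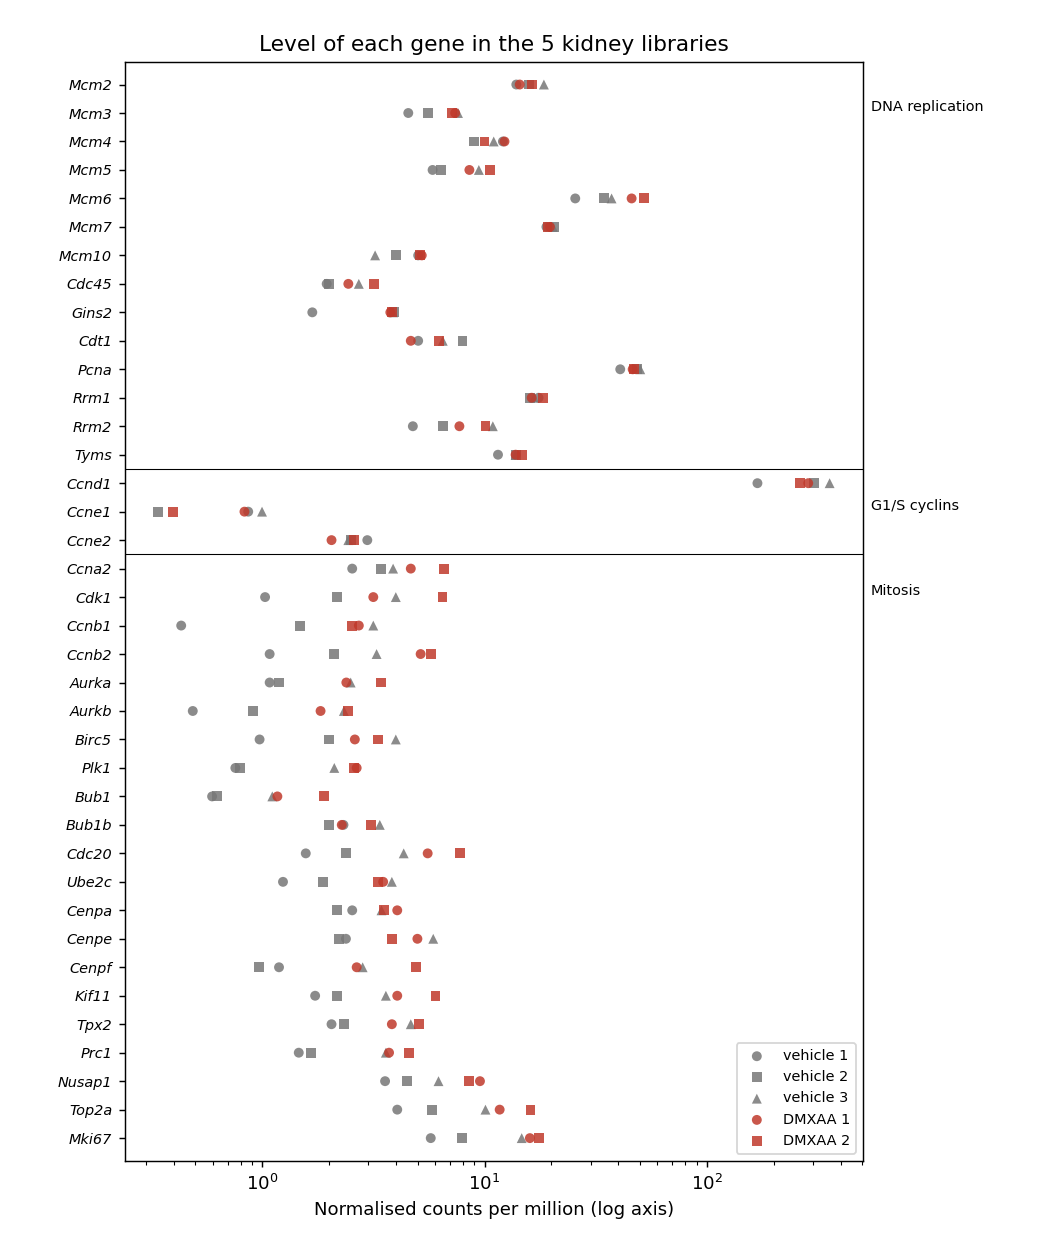
Normalised CPM (x axis, log axis) of each member in the 5 libraries, with grey symbols for vehicle and red for DMXAA and the replicate number given by the symbol. In the mitosis block vehicle libraries 1 and 2 lie to the left, while vehicle library 3 lies beside or among the DMXAA symbols.

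Among the genes that drive entry into mitosis, Ccnb2, a B-type cyclin that activates CDK1, had the largest estimate of the 38. It was at 1.08, 2.1 and 3.27 CPM with vehicle, against 5.16 and 5.72 CPM with DMXAA. These levels rest on 20, 37 and 59 reads with vehicle, against 93 and 115 with DMXAA. The groups did not overlap, although the vehicle values themselves spread about as widely as the distance from the highest of them to the DMXAA pair. The log2 fold change was 1.34 (SE 0.42), or 2.53-fold, with an unadjusted p of 0.0169 and an adjusted p of 0.724 in edgeR. Over 13 alternative fits, described below, the estimate ran from 1.01 to 1.82. Ccnb2 (ENSMUSG00000032218) lies on chromosome 9 from 70407692 to 70421547. Ccnb1, another B-type cyclin, did not separate the groups, at 0.432, 1.48 and 3.16 CPM with vehicle, against 2.72 and 2.54 CPM with DMXAA. The ratio of Ccnb2 to Ccnb1 reads overlapped between groups, at 2.5, 1.42 and 1.04 with vehicle, against 1.9 and 2.25 with DMXAA. Ccna2 (chromosome 3, 36564865 to 36572150), which acts in S phase and G2, was at 2.54, 3.41 and 3.88 CPM with vehicle, against 4.66 and 6.57 CPM with DMXAA. Its groups did not overlap (log2 fold change 0.78, SE 0.28, unadjusted p 0.0275, adjusted p 0.741 in edgeR). The estimate was 0.51 without DMXAA library 2, and 510 of its exonic bases are shared with an opposite-strand gene. The kinase gene Cdk1 was at 1.03, 2.16 and 3.99 CPM with vehicle, against 3.16 and 6.47 CPM with DMXAA. Here DMXAA library 1 lay below vehicle library 3, and the log2 fold change of 1.01 had an SE of 0.56. It was 0.40 without DMXAA library 2, 0.64 without vehicle library 1 and 1.60 without vehicle library 3. Plk1 and Aurka encode kinases of centrosomes and spindle. Plk1 was at 0.757, 0.796 and 2.11 CPM with vehicle, against 2.66 and 2.59 CPM with DMXAA, without overlap, and Aurka at 1.59 ± 0.786 and 2.91 ± 0.74 CPM, with overlap.

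Both genes for exit from mitosis had estimates above 0, but only Cdc20 separated the groups. Whether Cdc20 and Ube2c differed was not tested. Cdc20 (chromosome 4, 118432901 to 118437352), which activates the anaphase-promoting complex, was at 1.57, 2.39 and 4.33 CPM with vehicle, against 5.55 and 7.76 CPM with DMXAA, a log2 fold change of 1.27 (SE 0.42, unadjusted p 0.0198, adjusted p 0.735 in edgeR) without overlap. Ube2c, the ubiquitin-conjugating enzyme of the same complex, was at 1.24, 1.88 and 3.83 CPM with vehicle, against 3.5 and 3.33 CPM with DMXAA. There vehicle library 3 was the highest of the 5.

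Motor and spindle genes gave 2 of the 7 members with an unadjusted p below 0.05. Nusap1, a microtubule-binding protein of the spindle, was at 3.57, 4.49 and 6.21 CPM with vehicle, against 9.54 and 8.51 CPM with DMXAA. Nusap1 (chromosome 2, 119618298 to 119651244) shares 172 exonic bases with another gene. It had the smallest unadjusted p among the 21 mitosis genes (log2 fold change 0.92, SE 0.26, unadjusted p 0.00985, adjusted p 0.724 in edgeR). Kif11 (chromosome 19, 37376403 to 37421859), the kinesin that pushes spindle poles apart, was at 1.73, 2.16 and 3.6 CPM with vehicle, against 4.05 and 6.02 CPM with DMXAA (log2 fold change 1.01, SE 0.37, unadjusted p 0.0299). Prc1, which bundles the central spindle, was at 1.46, 1.65 and 3.6 CPM with vehicle, against 3.72 and 4.58 CPM with DMXAA, so vehicle library 3 nearly reached DMXAA library 1. Tpx2, the activator of Aurora A, was at 3.01 ± 1.43 and 4.45 ± 0.881 CPM, with overlap.

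Genes of the centromere, the checkpoint and chromosome structure differed in how far the groups lay apart. Top2a (chromosome 11, 98992943 to 99024189), the topoisomerase that untangles sister DNA, was at 4.05, 5.8 and 10.1 CPM with vehicle, against 11.7 and 16.1 CPM with DMXAA (log2 fold change 1.06, SE 0.37, unadjusted p 0.0242, adjusted p 0.741 in edgeR). Mki67, whose protein coats mitotic chromosomes, was at 5.73, 7.9 and 14.7 CPM with vehicle, against 16 and 17.6 CPM with DMXAA (log2 fold change 0.83, SE 0.36, and 1.30 without vehicle library 3). For both genes vehicle library 3 came close to DMXAA library 1. Cenpa, the centromeric histone H3 variant, was at 2.54, 2.16 and 3.44 CPM with vehicle, against 4.05 and 3.53 CPM with DMXAA, the smallest estimate (0.48, SE 0.29) among the 11 mitosis genes without overlap. The kinetochore genes Cenpe and Cenpf overlapped between groups, at 3.49 ± 2.07 and 4.41 ± 0.823 CPM and at 1.66 ± 1.02 and 3.79 ± 1.6 CPM. The paralogous checkpoint genes Bub1 and Bub1b had estimates of 0.97 (SE 0.44) and 0.06 (SE 0.33), and whether they differed was not tested. Bub1 was at 0.595, 0.625 and 1.11 CPM with vehicle, against 1.17 and 1.89 CPM with DMXAA, whereas Bub1b was at 2.32, 1.99 and 3.38 CPM with vehicle, against 2.28 and 3.08 CPM with DMXAA. The ratio of Bub1 to Bub1b reads was 0.256, 0.314 and 0.328 in vehicle and 0.512 and 0.613 in DMXAA. Bub1 rests on 11 to 38 reads a library, so counting error alone is large. Aurkb and Birc5, of the chromosomal passenger complex, were at 1.24 ± 0.965 and 2.13 ± 0.429 CPM and at 2.32 ± 1.54 and 2.97 ± 0.513 CPM, and vehicle library 3 exceeded DMXAA library 1 for both.

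The vehicle libraries were far from alike in mitosis genes. Vehicle library 3 was the highest vehicle library for 21 of 21 mitosis genes, beside 26.1% of all tested genes, and vehicle library 1 was the lowest of the 5 libraries for 17 of them, beside 23.6% of all tested genes. The summed level of the 21 genes was 38.8, 50.6 and 92.9 CPM with vehicle, against 98.2 and 119 CPM with DMXAA. Vehicle library 3 thus lay nearer to DMXAA library 1 than to either other vehicle library. At the level of single genes it reached or passed the lower DMXAA library in 10 of 21 (47.6%), beside 62.9% of all tested genes. Since it was the highest vehicle library for all 21, these are the same 10 genes whose groups overlapped, and the count adds nothing new. Vehicle libraries 1 and 2 both lay below both DMXAA libraries in 20 of 21, beside 18.9% of all tested genes. Without vehicle library 3 the median log2 fold change was 1.35, and without vehicle library 1, vehicle library 2, DMXAA library 1 and DMXAA library 2 it was 0.64, 0.72, 1.01 and 0.59. Estimates were above 0 for 19 to 21 of the 21 genes in these 5 fits.

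The 14 replication genes summed to 169, 195 and 212 CPM with vehicle, against 208 and 224 CPM with DMXAA, with overlap. The ratio of summed mitosis to summed replication level was 0.23, 0.26 and 0.438 in vehicle and 0.471 and 0.532 in DMXAA. The groups did not overlap, but the gap between vehicle library 3 and DMXAA library 1 was smaller than the gap within vehicle. The medians of replication and mitosis genes differed by -0.67 on the log2 scale (replication minus mitosis), and by -0.48 to -1.17 when each library was left out in turn. The largest of these, without vehicle library 3, moved the difference by more than 1.5 times. This difference is a description of 2 chosen lists and was given no test. Mitosis genes were also rarer, with a median of 0.758 CPM per kilobase against 2.13 for replication genes, and 8 to 353 reads a gene and library against 31 to 1047, and their SE ran from 0.26 to 0.67.

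**Figure D4:**
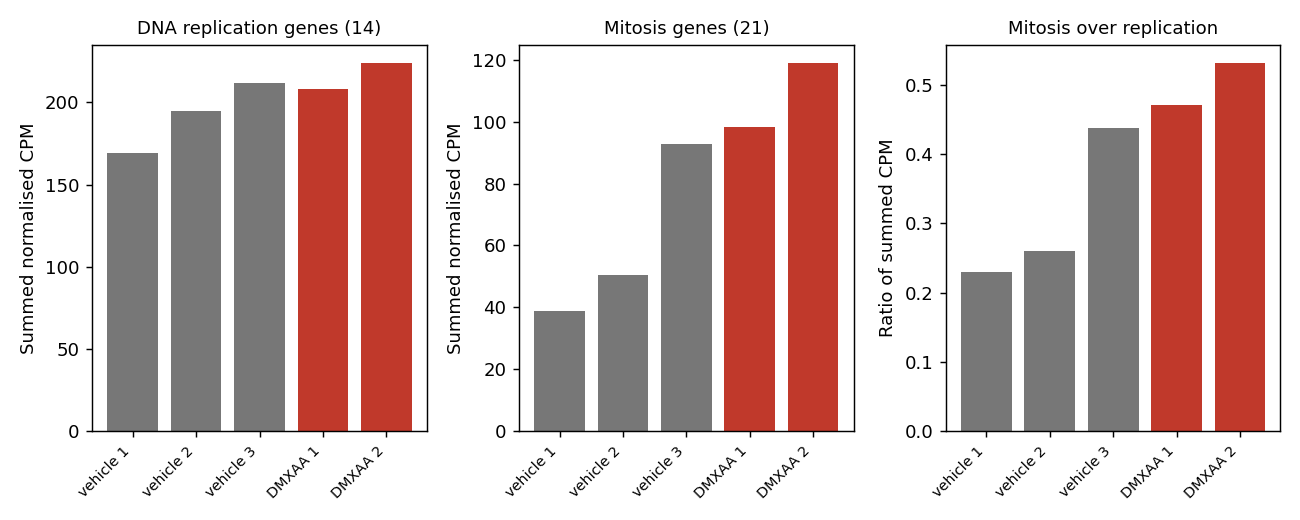
Summed normalised CPM of the 14 replication genes (left) and of the 21 mitosis genes (middle), and the ratio of the 2 sums (right), with 1 bar per library (grey vehicle, red DMXAA) and no error bars. Mitosis sums run from 38.8 to 92.9 in vehicle and reach 98.2 and 119 in DMXAA, while replication sums stay between 169 and 224.

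Other genes of the same processes, listed by function, gave a larger median for mitosis than for replication, in the same 5 libraries. These lists too were chosen with earlier results of these data known, so they are not independent support. Of 50 other replication genes 48 were tested, 31 had estimates above 0, and the median was 0.07. At an unadjusted p below 0.05 in edgeR 3 were higher and 0 lower. That share was 6.25%, close to the 6.55% of all tested genes. The 5 with the smallest p were Tk1, Ticrr, Pole, Orc3 and Asf1b. Tk1, the thymidine kinase made in S phase, was at 6, 6.99 and 7.15 CPM with vehicle, against 8.71 and 12.5 CPM with DMXAA, and Pole, the leading-strand polymerase, at 1.51, 2.1 and 2.27 CPM with vehicle, against 2.94 and 3.68 CPM with DMXAA. Ticrr, which helps to fire origins, was very rare, at 0.0541, 0.114 and 0.333 CPM with vehicle, against 0.555 and 0.796 CPM with DMXAA. These levels rest on 1, 2 and 6 reads with vehicle, against 10 and 16 with DMXAA. Ticrr passed the expression filter only through the DMXAA libraries, so its place among the 3 higher genes is no support for a difference. The origin recognition gene Orc3 was at 30.8 to 42.2 CPM with vehicle, against 46.1 and 46 CPM with DMXAA, and the histone chaperone gene Asf1b at 1.36 to 1.55 CPM and 2.39 and 1.99 CPM.

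Of 56 other mitosis genes 54 were tested, 49 had estimates above 0, and the median was 0.49. At an unadjusted p below 0.05 in edgeR 10 were higher and 0 lower, a share of 18.5%, beside 6.55% of all tested genes. In 21 of these 54 both DMXAA libraries lay above all vehicle libraries and in 0 below, beside 13.7 and 12.3% of all tested genes. Among the 48 other replication genes these counts were 12 and 4. The share without overlap was thus 33.3% there and 38.9% for the other mitosis genes, beside 26.0% of all tested genes. Knl1, the scaffold of the outer kinetochore, was at 0.865, 0.569 and 0.887 CPM with vehicle, against 2.16 and 2.69 CPM with DMXAA. Its values in vehicle libraries 1 and 3 were nearly equal, with vehicle library 3 slightly the higher, and the vehicle values rest on 16, 10 and 16 reads. Pbk, a mitotic kinase, was at 0.541, 1.42 and 2 CPM with vehicle, against 3.66 and 4.38 CPM with DMXAA, and the citron kinase gene Cit, which acts in cytokinesis, at 8.33, 4.83 and 6.77 CPM with vehicle, against 11.6 and 11.7 CPM with DMXAA. Fam83d, a spindle protein gene, had a log2 fold change of 1.82 (SE 0.50, and 1.18 without DMXAA library 2) and Shcbp1, which acts at the midbody, of 1.05 (SE 0.34). None was called over all genes, with a smallest adjusted p of 0.629 in edgeR.

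Regulators of the cycle had estimates of both signs. Of 42 listed genes 40 were tested, with 19 estimates above 0 and a median of -0.01. At an unadjusted p below 0.05 in edgeR 2 genes were higher and 2 lower, a share of 10%, beside 6.55% of all tested genes. Foxm1, the transcription factor of G2 and M genes, was at 2.05, 2.27 and 3.27 CPM with vehicle, against 4.38 and 5.42 CPM with DMXAA (log2 fold change 0.95, SE 0.29, unadjusted p 0.0135, adjusted p 0.724 in edgeR). Wee1, the kinase that holds CDK1 inactive, was at 19.7, 16.8 and 22.2 CPM with vehicle, against 25.7 and 28.2 CPM with DMXAA. In the other direction, Btg2, an antiproliferative p53 target that is also an early response gene, was at 46.9, 36.3 and 55.6 CPM with vehicle, against 25.7 and 29.6 CPM with DMXAA (log2 fold change -0.74, SE 0.19). Myc was at 7.19, 5.63 and 8.6 CPM with vehicle, against 4.16 and 4.63 CPM with DMXAA. The groups did not overlap for these 4 genes. Over the 40 tested regulators, both DMXAA libraries lay above all vehicle libraries in 8 and below them in 3. That share without overlap, 27.5%, was close to the 26.0% of all tested genes. The repressor gene E2f8 was at 0.432, 0.284 and 0.943 CPM with vehicle, against 1.17 and 1.14 CPM with DMXAA, also without overlap. E2f1, the activator of replication genes, overlapped at 3.78 ± 1.27 and 4.32 ± 0.779 CPM, as did Mybl2, at 1.46 ± 0.166 and 1.76 ± 0.173 CPM, and the CDK inhibitor gene Cdkn1a (p21), at 17.6 ± 3.46 and 22.3 ± 4.77 CPM.

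Promoter sequences are shown for the members with an unadjusted p below 0.05 that had a RefSeq entry, since E2F sites are known from replication promoters and the CHR and CCAAT elements from mitosis promoters. Of the 38 members 31 matched the RefSeq table (GRCm38.p6, the assembly of mm10), and Aurkb, Ccna2, Ccnd1, Ccne2, Gins2, Mcm4 and Tpx2 did not. The 250 bases before the RefSeq start were searched on both strands for E2F (TTTCCCGC, TTTCGCGC, TTTGCCGC or TTTGGCGC), CHR (TTTGAA or TTCGAA) and CCAAT, with overlapping matches counted. Matches are in capitals, read 5′ to 3′ along the gene, with the gene's start just after the last base. Mcm6 was read from chr1:128359706-128359955 (- strand), Ccnb2 from chr9:70421555-70421804 (- strand), Cdc20 from chr4:118437344-118437593 (- strand), Kif11 from chr19:37376132-37376381 (+ strand), Top2a from chr11:99024190-99024439 (- strand) and Nusap1 from chr2:119618048-119618297 (+ strand).
Mcm6: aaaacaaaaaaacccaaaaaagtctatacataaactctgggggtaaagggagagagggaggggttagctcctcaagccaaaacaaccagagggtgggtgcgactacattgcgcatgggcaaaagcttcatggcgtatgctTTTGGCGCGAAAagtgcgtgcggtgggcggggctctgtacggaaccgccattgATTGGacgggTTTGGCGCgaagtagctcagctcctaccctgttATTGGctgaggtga
Ccnb2: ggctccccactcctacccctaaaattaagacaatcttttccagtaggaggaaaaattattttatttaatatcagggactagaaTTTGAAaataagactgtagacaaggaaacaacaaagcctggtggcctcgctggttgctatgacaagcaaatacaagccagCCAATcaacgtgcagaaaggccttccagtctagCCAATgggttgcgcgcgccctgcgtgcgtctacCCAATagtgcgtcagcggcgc
Cdc20: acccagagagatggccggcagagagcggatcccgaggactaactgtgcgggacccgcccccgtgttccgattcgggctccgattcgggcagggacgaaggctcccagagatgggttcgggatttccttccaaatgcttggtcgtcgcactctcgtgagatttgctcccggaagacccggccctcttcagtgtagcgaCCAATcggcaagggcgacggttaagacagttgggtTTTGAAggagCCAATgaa
Kif11: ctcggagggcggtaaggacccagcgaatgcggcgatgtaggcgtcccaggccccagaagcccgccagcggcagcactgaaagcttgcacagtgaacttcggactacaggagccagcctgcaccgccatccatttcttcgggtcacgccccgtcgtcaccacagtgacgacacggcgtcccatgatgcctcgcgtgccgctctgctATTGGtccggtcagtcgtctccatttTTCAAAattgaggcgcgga
Top2a: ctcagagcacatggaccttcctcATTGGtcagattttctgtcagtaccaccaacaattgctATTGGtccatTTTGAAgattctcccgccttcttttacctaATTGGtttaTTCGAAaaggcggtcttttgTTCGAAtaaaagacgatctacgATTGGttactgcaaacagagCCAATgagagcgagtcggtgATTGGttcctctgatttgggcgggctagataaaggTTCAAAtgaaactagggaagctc
Nusap1: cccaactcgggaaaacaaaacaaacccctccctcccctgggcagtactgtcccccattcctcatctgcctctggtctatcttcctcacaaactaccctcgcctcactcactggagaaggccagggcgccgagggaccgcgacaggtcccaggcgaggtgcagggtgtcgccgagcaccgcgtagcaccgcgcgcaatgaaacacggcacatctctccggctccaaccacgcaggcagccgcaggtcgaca

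The Mcm6 promoter, of the replication gene with the largest estimate, held 3 E2F matches, starting 110, 106 and 47 bases before the RefSeq start, of which the first 2 overlap in the run TTTGGCGCGAAA, and 2 CCAAT matches, written ATTGG on this strand. Ccnb2 held 1 CHR match 167 bases before the start and 3 CCAAT matches at 87, 54 and 21 bases. In Cdc20 and Kif11 a CHR match (on the opposite strand, TTCAAA, in Kif11) lay close to the start, at 18 and 19 bases, with CCAAT upstream of it at 53 and 45 bases. Top2a held 4 CHR and 6 CCAAT matches, and Nusap1 held none of the 3 motifs in this window. By group, an E2F match was present in 3 of 12 replication genes (25%) and 1 of 18 mitosis genes (5.56%), beside 2.16% of all 27025 genes of the table. A CHR match was present in 3 of 12 replication genes and 9 of 18 mitosis genes (50%), beside 19.6% of all genes, and CHR together with CCAAT in 3 of 12 replication genes (25%) and 9 of 18 mitosis genes (50%), beside 7.93% of all genes. CCAAT alone did not separate the groups, at 83.3 and 88.9%, beside 37.5% of all genes. A letter match is a description and not evidence of binding.

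Markers of other cells were set beside the mitosis genes, since dividing cells in kidney can be tubular, endothelial or of blood origin. Vehicle library 3, the vehicle library richest in mitosis transcripts, also had the highest median level of the 5 libraries in 8 B and plasma cell genes (0.57 relative to the mean of all libraries, log2), 8 T and NK cell genes (0.45), 8 myeloid genes (0.44) and 8 tubular injury genes (0.25). In all 3 blood cell lists DMXAA library 2 lay below DMXAA library 1, the reverse of the mitosis genes, whereas in the injury list it lay above. Summed B and plasma cell genes were at 13.3 to 27.8 CPM with vehicle, against 19 and 9.6 CPM with DMXAA. T and NK cell genes were at 11.9 to 20 CPM and 17.6 and 14 CPM, and myeloid genes at 175 to 292 CPM and 212 and 191 CPM. The T and NK cell sums include Gzma, at 1.78, 1.88 and 2.5 CPM with vehicle, against 5.49 and 6.17 CPM with DMXAA. Its groups did not overlap, and its adjusted p was 0.535 in edgeR and 0.00781 in DESeq2. Of the 8 T and NK cell genes 6 had estimates below 0, among them Cd3g, whose groups did not overlap either. DMXAA library 2, the highest of all in mitosis genes, was the lowest in B and plasma cell and T and NK cell medians (-0.72 and -0.48). Of these 3 lists, Ighd was at 0 in DMXAA library 1 and all other genes had counts in every library.

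Red cell genes had estimates below 0 in 6 of 7 tested, with sums of 171 to 345 CPM with vehicle, against 114 and 98.5 CPM with DMXAA. Slc4a1 made up much of the DMXAA sums, at 63.4, 73.4 and 95.3 CPM with vehicle, against 59.2 and 65.2 CPM with DMXAA. Its groups overlapped (log2 fold change -0.31), whereas the median of the 7 tested genes was -2. Slc4a1 was highest in vehicle library 3. Hba-a1, a globin gene, was instead at 136, 75.6 and 35.2 CPM with vehicle, against 25.6 and 15.5 CPM with DMXAA. Which cells the Slc4a1 reads came from was not tested. In 5 of the 7 both DMXAA libraries lay below all vehicle libraries. Epb42 went the other way without overlap, at 0.703, 1.14 and 2 CPM with vehicle, against 2.5 and 3.38 CPM with DMXAA. Of 8 proximal tubule genes 8 had estimates above 0, with sums of 7640 to 9570 CPM with vehicle, against 10100 and 11400 CPM with DMXAA, but here vehicle library 3 was the lowest. The groups did not overlap in 7 of the 8 (87.5%), beside 52.4% of the mitosis members and 26.0% of all tested genes. At an unadjusted p below 0.05 in edgeR there were 5 of 8 (62.5%), beside 6.55% of all tested genes. None was called in edgeR, but DESeq2 called 2, Slc5a12 (adjusted p 0.000176) and Slc5a2 (adjusted p 0.0218). Of 8 endothelial genes 6 had estimates above 0, with sums of 366 to 569 CPM with vehicle, against 524 and 554 CPM with DMXAA. Tubular injury genes summed to 986 to 1900 CPM with vehicle, against 1170 and 2110 CPM with DMXAA, and 5 of 7 tested had estimates above 0. None of the genes in these 4 lists was at 0 in any library. The part of these cell types in the mitosis result was not tested.

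**Figure D5:**
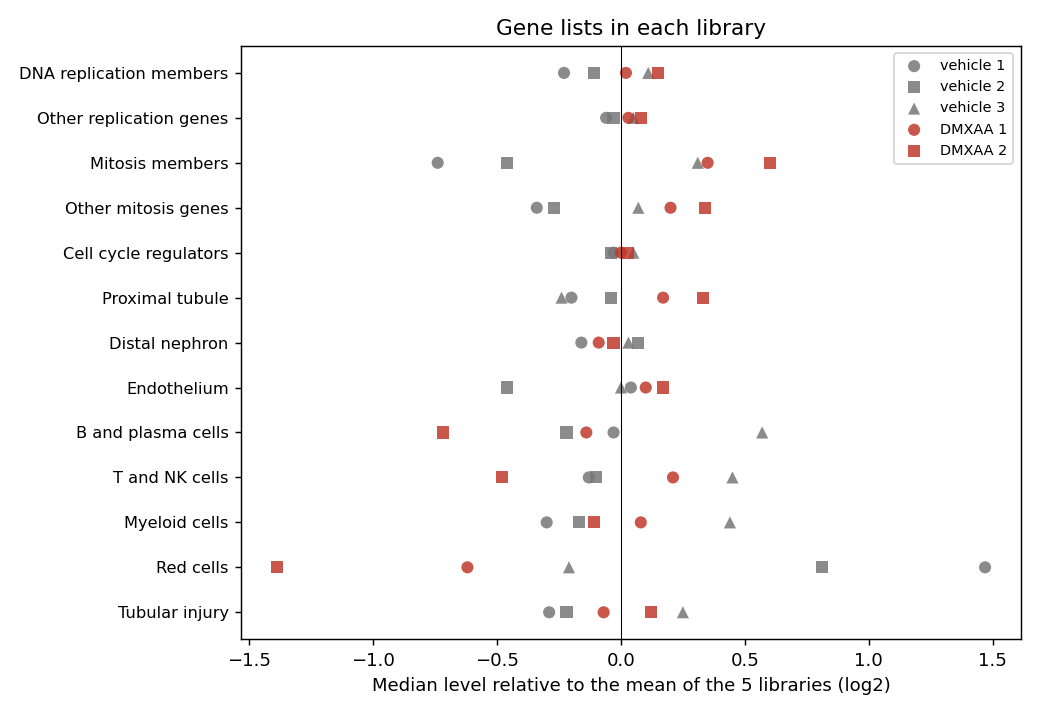
Median level of each gene list in each library relative to the mean of the 5 libraries (x axis, log2), with grey symbols for vehicle, red for DMXAA and the replicate number given by the symbol. In the mitosis rows vehicle libraries 1 and 2 (-0.74 and -0.46) lie left of vehicle library 3 (0.31) and the DMXAA libraries (0.35 and 0.60).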

How the data were processed

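Kidney RNA-seq of 3 vehicle and 2 DMXAA samples was used. The table the authors deposited holds unnormalised counts of reads by Ensembl gene ID. The tools Subread, featureCounts, HISAT2 and DESeq2 1.16.1 and the build mm10 are named, per the submitters' processing notes. What each tool did, the annotation, strandedness and the handling of multiply mapped reads were not given in the sources used here. Overlapping genes therefore cannot be told apart in the counts, which touches the exons of 12 of the 38 members (53 to 2758 bases). Per the labels' protocols 2 library kits are named without saying which sample used which, so no kit batch could be tested. Columns CO1 to CO3 and XA1 and XA2 were read as vehicle and DMXAA replicates by their names, and 0 columns were left unassigned.

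Symbols, coordinates and exon lengths came from GENCODE M21 (99.9% of 54532 IDs matched). Counts were tested with edgeR 4.0.16 in R 4.3.3: TMM, the default expression filter (16226 genes kept), group as the only term, a two-sided quasi-likelihood F test and Benjamini-Hochberg adjustment over all tested genes, called below 0.05. The SE is the log2 fold change divided by the square root of F. The limit for a gene with no reads (3 counts) was 0.149 to 0.171 CPM, for counting error only. Relative levels are log2(CPM + 0.5) minus the mean of the 5 libraries. All 5 libraries differed by more than sampling noise (chi-square over degrees of freedom 7.35 to 38.5 by pair). The members and gene lists were chosen with earlier results of these data known, so no list was tested. Named genes were Mcm6, Ccnb2, Mki67, Top2a, Pcna, Cdk1, Ccnd1, members with an unadjusted p below 0.05 or groups that did not overlap, the 5 smallest p of each further list, and Cdkn1a, Foxm1, Mybl2 and E2f1; values of other members are given so that all are accounted for. Alternatives were DESeq2 1.42.0, relative log expression (RLE) scaling, other filters, robust and bias-adjusted fits, adjustment for transcript length and GC, a replicate block, and dropping each library in turn. The procedure was tested on simulated data.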

Additional observations from a re-analysis of the deposited data

How the results depend on the processing

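Under all 13 alternatives 0 of the 38 members were called. The count over all genes was 0 except with DESeq2 (54), without an expression filter (34), with the replicate block (4) and when a library was left out (0 to 2). Members at an unadjusted p below 0.05 numbered 7, against 13 without an expression filter, 22 with the replicate block and 1 to 20 when a library was left out, and over all genes 1062, against 1604, 790 and 256 to 1893. The median log2 fold change of the mitosis genes, 0.87, was 1.33 with the replicate block and 0.59 to 1.35 when a library was left out, the difference of the medians, -0.67, was -1.14 and -1.17 to -0.48, and the replication median ran from 0.06 to 0.24 when a library was left out. In the block fit vehicle library 3 has no partner and does not bear on the contrast, by construction. The numbers were not taken as pairs: 2 pairs only, with correlations of 0.07 between the deviations of same-numbered libraries. Of 34 named genes, 31 kept their direction in every alternative that gave them a value, which was all 13 except for Ticrr (10). Pcna (0.0045) turned to -0.09 without vehicle library 1 and -0.0018 without DMXAA library 2. Ccnd1 (-0.01) turned to 0.27 with the replicate block and to 0.06, 0.21 and 0.05 without vehicle library 2, vehicle library 3 and DMXAA library 2, in a range of -0.28 to 0.21 when a library was left out. E2f1 (0.20) turned to -0.01 without vehicle library 1 and -0.00096 without DMXAA library 2, in a range up to 0.49; the cause was not tested.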
